A study of Mus musculus with 7 samples.

Results

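The mRNA of the matrix metalloproteinases (MMPs), the ADAM and ADAMTS proteases and the TIMPs, protein inhibitors of MMPs and of some of the other proteases, was measured in mouse C2C12 muscle cells that had been incubated with exosomes from other C2C12 cells. Members were all non-control probes whose gene name begins with Mmp, Adam or Timp followed by a number, or with Adamts, which takes in the ADAMTS-like genes. The array carried 112 such probes for 83 genes. A probe was kept where the scanner software called it well above background on at least 3 arrays of 1 group, which left 54 probes for 45 genes, out of 21589 probes for 17477 gene names on the whole array. None of these rules uses the size of the difference between the groups. A probe can pass the signal rule through 1 group alone, however, which favours a lower value in the other group.

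Donor C2C12 cells were treated with palmitate at 0.5 mmol/l, a saturated fatty acid bound to BSA, or with BSA alone, and the paper states that exosomes were taken from them 9 h after palmitate had been removed. Recipient cells received these exosomes in serum-free medium for 24 h, which gave 4 arrays for EXO-Post BSA and 3 for EXO-Post Palm, each a 1-colour Agilent mouse array hybridised with 0.1 µg of RNA labelled with Cy3. No array of cells without exosomes was analysed here, so each value below is set against cells that received exosomes of BSA-treated donors. C2C12 is 1 immortal line, its recipients are called myotubes in the paper and myoblasts in the labels, and the labels' cell line field counts upward from C2C12 over the arrays, which was not taken as a difference between cells. The labels call the arrays of a group biological replicates and do not say whether each received a separate exosome preparation.

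MMPs are zinc proteases that cut collagens, laminins and other matrix proteins, and most are made as inactive precursors. ADAMs are membrane-anchored relatives that shed the outer parts of membrane proteins, and ADAMTS proteases are secreted and act on procollagens and proteoglycans. TIMPs bind these proteases one to one, and TIMP3 differs from the others in being held in the matrix and in blocking several ADAMs and ADAMTS proteases as well as MMPs. In muscle, fusing myoblasts and regenerating fibres remodel their matrix with these enzymes, and the ADAM12 protein was first described there as meltrin alpha.

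Values are log2 of the processed intensity minus the 75th percentile of each array, so 0 is that percentile, and levels of different probes are not comparable. The percentile lay between 549.4 and 1621 intensity units, and an array had 19125 to 27720 of its 39429 probes well above background. Arrays of both groups stood together on slide 1 (replicates 1 and 2 of EXO-Post BSA, replicate 1 of EXO-Post Palm) and on slide 3 (replicate 4 of EXO-Post BSA, replicate 3 of EXO-Post Palm). Slide 2 carried replicate 3 of EXO-Post BSA alone and slide 4 replicate 2 of EXO-Post Palm. Precision is limited by the small number of arrays. All 12 muscle marker genes examined passed the signal rule and none of 4 adipocyte markers did. Of 6 macrophage markers 3 passed (Csf1r, Emr1 and Itgam), while Ptprc, Cd68 and Lyz2 did not, and their summed level, in units of the 75th percentile, was 7.14 to 17.5 with EXO-Post BSA and 4.86 to 5.65 with EXO-Post Palm. Itgam, the brightest of the 3, differed by -1.63, while Csf1r and Emr1 differed by 0.45 and 0.58, none at an adjusted p under 0.05. Kdr and Pecam1 passed among 4 endothelial markers, while Cdh5 and Tek did not. Of 8 markers of proliferating cells 7 passed, and 5 of these 7 were higher with EXO-Post Palm at a limma adjusted p under 0.05. Their summed level was 4.82 to 5.68 with EXO-Post BSA and 17.1 to 43.4 with EXO-Post Palm, so every difference below was measured beside a rise of cell cycle genes, and the part of that rise in it was not tested. In RNA from whole cultures, fewer cells of a type and less RNA per cell cannot be told apart.

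Across the comparison, 115 of 21589 probes had a limma adjusted p under 0.05 (0.533%), 2169 had an unadjusted p under 0.05 (10.0%), and for 2432 (11.3%) the 2 groups of arrays did not overlap. None of the 54 tested member probes had an adjusted p under 0.05 by limma. By the unadjusted p 7 were under 0.05, which is 13.0% of the tested members against the 10.0% of all tested probes, with 3 higher and 4 lower with EXO-Post Palm. The groups did not overlap for 8 member probes, or 14.8% against 11.3%, of which 2 were higher and 6 lower. The 7 genes were Timp3, Adamts2, Adamts4 and Adamts8, lower, and Timp1, Mmp2 and Mmp11, higher. Adamts8, also among the 6 lower probes without overlap, passed the signal rule through EXO-Post BSA alone. The median difference was -0.05 on the log2 scale over the tested member probes and -0.02 over all tested probes. Of the 36 member probes with signal on all 7 arrays, 18 had a difference above 0 and 18 below. Their median was -0.01, against -0.02 over all probes with signal on all 7 arrays.

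**Figure D1:**
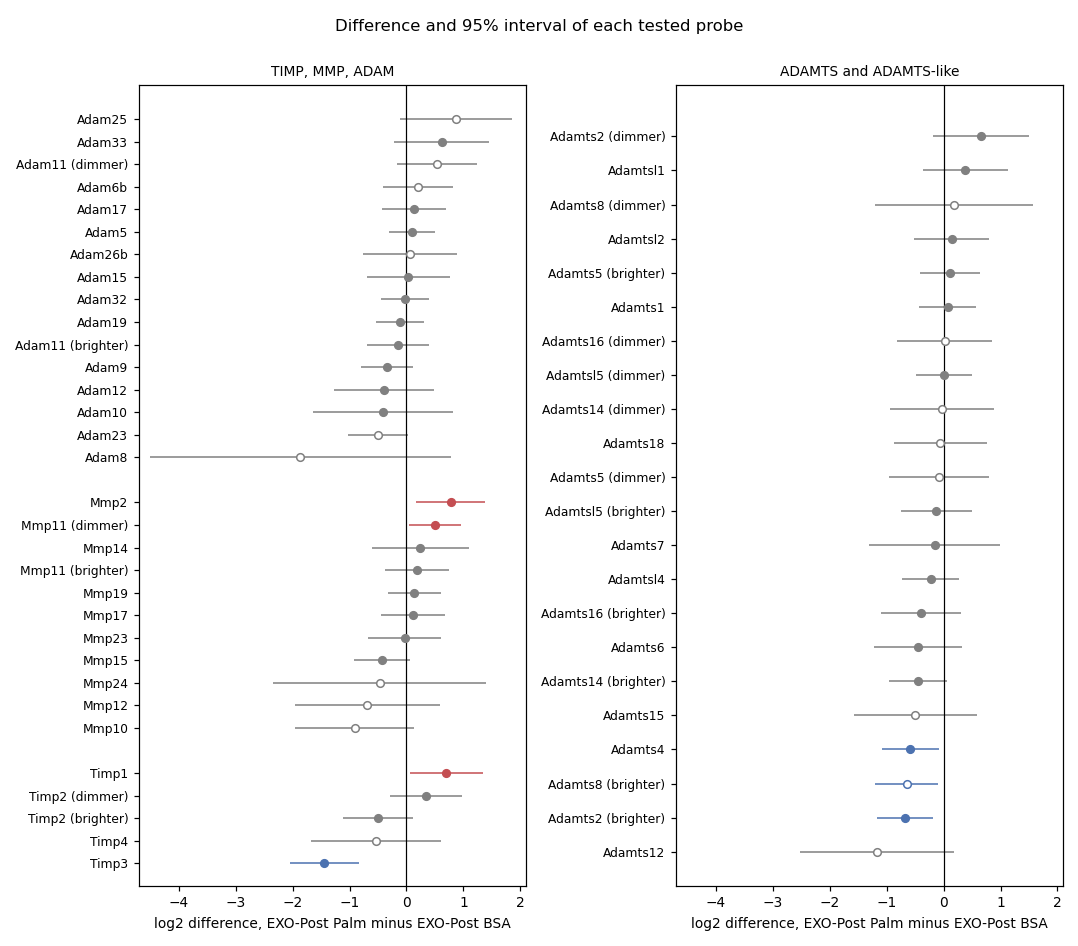
Each point is the log2 difference of 1 probe, EXO-Post Palm minus EXO-Post BSA, with its 95% interval from limma, for the 54 tested probes of 45 genes. Red and blue mark an unadjusted p under 0.05, higher and lower, and open circles mark probes not well above background on all 7 arrays. Timp3 lies at -1.44 with an interval from -2.05 to -0.83, and Adam8 has the widest interval.

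Promoter windows are shown for those of the 7 genes that have one in the RefSeq promoter table (GRCm38.p6), and for Mmp10 as an example of a window of another make-up. A window holds 250 bases before and 50 after an annotated transcript start, and 52 of the 83 genes had one. Capitals mark short motifs read on both strands: AP-1 (TGANTCA), Ets (AGGAAG), Sp1 (GGGCGG) and the TATA box (TATAAA). They were found in 7.81, 35.4, 35.7 and 13.6% of all 32851 windows, in that order. A match of letters is a description and not a binding site.
Timp3, chr10:86300162-86300461, plus strand: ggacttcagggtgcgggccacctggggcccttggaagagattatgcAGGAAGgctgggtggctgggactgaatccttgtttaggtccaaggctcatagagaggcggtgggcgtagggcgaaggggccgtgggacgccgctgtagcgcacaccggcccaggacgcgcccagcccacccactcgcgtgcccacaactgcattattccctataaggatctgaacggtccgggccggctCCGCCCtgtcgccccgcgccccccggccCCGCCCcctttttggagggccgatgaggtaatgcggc
Timp1, chrX:20869916-20870215, plus strand: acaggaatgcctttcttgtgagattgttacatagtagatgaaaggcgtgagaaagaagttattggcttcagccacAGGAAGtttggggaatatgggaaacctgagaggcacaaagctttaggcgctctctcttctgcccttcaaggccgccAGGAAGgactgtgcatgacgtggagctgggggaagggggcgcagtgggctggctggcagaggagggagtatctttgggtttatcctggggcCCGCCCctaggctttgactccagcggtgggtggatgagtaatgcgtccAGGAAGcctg
Adamts2, chr11:50601835-50602134, plus strand: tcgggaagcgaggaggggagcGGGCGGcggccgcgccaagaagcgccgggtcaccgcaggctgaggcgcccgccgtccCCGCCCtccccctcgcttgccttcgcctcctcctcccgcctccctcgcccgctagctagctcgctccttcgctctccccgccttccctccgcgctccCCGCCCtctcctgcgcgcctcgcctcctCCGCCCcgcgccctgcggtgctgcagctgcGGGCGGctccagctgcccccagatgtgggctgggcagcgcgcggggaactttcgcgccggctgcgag
Mmp11, chr10:75932453-75932752, minus strand: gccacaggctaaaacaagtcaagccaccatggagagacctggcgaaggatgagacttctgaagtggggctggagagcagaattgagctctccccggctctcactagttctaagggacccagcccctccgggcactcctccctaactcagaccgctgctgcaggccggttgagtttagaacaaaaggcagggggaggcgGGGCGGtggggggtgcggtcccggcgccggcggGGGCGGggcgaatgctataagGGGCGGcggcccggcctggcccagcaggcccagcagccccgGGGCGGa
Mmp10, chr9:7502092-7502391, plus strand: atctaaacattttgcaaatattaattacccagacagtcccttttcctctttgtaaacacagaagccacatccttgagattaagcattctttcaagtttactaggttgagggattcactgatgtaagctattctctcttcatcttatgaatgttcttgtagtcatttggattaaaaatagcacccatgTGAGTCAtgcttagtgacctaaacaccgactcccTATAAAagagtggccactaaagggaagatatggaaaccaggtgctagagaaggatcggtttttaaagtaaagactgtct

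In the Timp3 window, 67.0% G and C, the letters of Sp1 occurred 2 times and those of Ets once, and in the Timp1 window, 55.0% G and C, those of Ets occurred 3 times and those of Sp1 once. The windows of Adamts2 (77.3% G and C) and Mmp11 (67.0%) held 5 and 4 matches to Sp1 and none to the other 3 motifs. The Mmp10 window (37.7% G and C) held an AP-1 match that begins 63 bases before the start and a TATA match that begins 29 bases before it, and no Sp1 match. AP-1 and TATA occurred together in 1.54% of all windows and in a window of 8 of the 18 Mmp genes that have one, namely Mmp1a, Mmp1b, Mmp3, Mmp7, Mmp10, Mmp12, Mmp13 and Mmp20. The probes of all 8 lie on chromosome 9 of mm9, between 7282762 and 7697700, so the 8 are neighbouring genes and not separate cases. The TATA letters begin at base 5 counted from the start in Mmp12 and 7 bases before it in Mmp3. Of these 8 genes 2 passed the signal rule in these cells, Mmp10 and Mmp12, and of the other 10 Mmp genes with a window 5 did.

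All 4 TIMP genes were measured, by 5 probes that all passed the signal rule, and they did not move together. Timp3 was lower with EXO-Post Palm, Timp1 was higher, the 2 probes of Timp2 lay on opposite sides of 0, and Timp4 was near background. The TIMP genes other than Timp2 are each known to lie inside an intron of a synapsin gene, on the other strand.

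Timp3 had the smallest p of all tested members. Its probe (NM_011595, mm9 chr10:85811696-85811755, plus strand) read 5.74, 5.37, 5.73 and 5.65 on the arrays of EXO-Post BSA, replicates 1 to 4 in turn, and 3.93, 4.77 and 3.84 on those of EXO-Post Palm. All 3 EXO-Post Palm arrays lay below all 4 EXO-Post BSA arrays, and EXO-Post Palm replicate 2, alone on slide 4, lay nearest to them. The means were 5.62 ± 0.17 (SD, n = 4) and 4.18 ± 0.51 (SD, n = 3), a difference of -1.44 (SE 0.269), or 2.72-fold lower. The limma adjusted p was 0.0699 and the exact permutation p was 0.0286, the smallest that 35 splits allow. Within slide 1 the difference was -1.62, within slide 3 it was -1.81, and with slide as a block it was -1.70 (limma adjusted p = 0.0564). It passed in 5 of 20 alternatives and lay between -1.74 and -1.27 in all of them. Without EXO-Post Palm replicate 2 it was -1.74 (limma adjusted p = 0.0171).

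Timp1, an inhibitor that injured and inflamed tissue makes in large amounts, read 5.19, 5.88, 4.77 and 5.44 with EXO-Post BSA and 5.97, 5.88 and 6.22 with EXO-Post Palm (NM_001044384, mm9 chrX:20451802-20451861, plus strand). EXO-Post BSA replicate 2 was level with the lowest of the EXO-Post Palm arrays, and the 3 other EXO-Post BSA arrays lay below them. The difference was 0.70 (SE 0.281), or 1.63-fold higher, with a limma p of 0.035 that became 0.456 after adjustment, and an exact permutation p of 0.0857. It was 0.43 within slide 1, 0.78 within slide 3 and 0.58 with slide as a block.

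Timp2, which also helps MMP14 to activate the MMP2 precursor at the cell surface, gave a bright and a dimmer probe. The brighter one (mm9 chr11:118163146-118163205, minus strand) read 7.54, 7.34, 7.71 and 7.85 with EXO-Post BSA and 6.65, 7.64 and 7.06 with EXO-Post Palm, so EXO-Post Palm replicate 2 lay among the EXO-Post BSA arrays and the other 2 below them. Its difference was -0.50 (SE 0.272, limma adjusted p = 0.595), and -0.79 within slide 1 and within slide 3. The dimmer probe, whose 2 ends are 6778 bases apart on mm9 and so cross an intron, read 4.20, 4.21, 3.59 and 3.44 with EXO-Post BSA and 4.24, 4.50 and 3.87 with EXO-Post Palm, a difference of 0.34 (SE 0.277, limma adjusted p = 0.72). The 2 probes therefore gave no common direction for Timp2. Timp4 was well above background on 3 of 4 EXO-Post BSA and 1 of 3 EXO-Post Palm arrays and differed by -0.54 (SE 0.501, limma adjusted p = 0.758). Its difference was above 0 within both slides (0.45 and 0.08), and 0.29 with slide as a block.

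**Figure D2:**
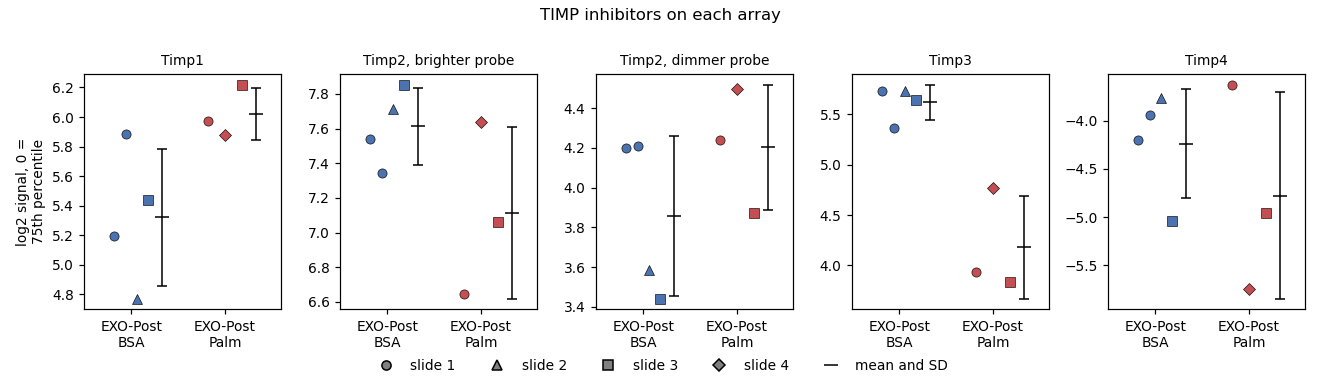
Log2 signal of the 5 TIMP probes on each array, with 0 at the 75th percentile of the array, for EXO-Post BSA (blue, n = 4) and EXO-Post Palm (red, n = 3); marker shapes give the slide, and the bars give mean and SD. The groups are apart for Timp3, at 5.37 to 5.74 against 3.84 to 4.77, and overlap for the other 4 probes; each panel has its own axis.

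Of 23 Mmp genes, 10 passed the signal rule with 11 probes, and 8 of these probes were well above background on all 7 arrays. The secreted gelatinase Mmp2 was higher with EXO-Post Palm, Mmp11 was higher by 1 of its 2 probes, and the membrane-type enzymes differed by -0.47 to 0.24. Among the genes that did not pass the rule were the stromelysin Mmp3, matrilysin Mmp7, the collagenases Mmp8 and Mmp13 and the gelatinase Mmp9. Of the 18 Mmp probes that were not tested, 16 were well above background on no array.

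Mmp2, which cuts denatured collagen and basement membrane collagen, read 3.21, 3.55, 2.88 and 3.11 with EXO-Post BSA and 3.84, 4.44 and 3.61 with EXO-Post Palm (NM_008610, mm9 chr8:95376840-95376899, plus strand). Every EXO-Post Palm array lay above every EXO-Post BSA array, by little between EXO-Post Palm replicate 3 and EXO-Post BSA replicate 2. The means were 3.19 ± 0.28 (SD, n = 4) and 3.96 ± 0.43 (SD, n = 3), a difference of 0.78 (SE 0.268), or 1.72-fold higher, with a limma p of 0.0181, an adjusted p of 0.375 and an exact permutation p of 0.0571. Within slides 1 and 3 it was 0.46 and 0.50, and with slide as a block 0.48, which is smaller than the pooled value by over 1.5 times.

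Mmp11, stromelysin-3, is activated inside the cell by furin, unlike most secreted MMPs. The dimmer of its probes (mm9 chr10:75386209-75386268, minus strand) read 0.90, 0.93, 0.89 and 1.00 with EXO-Post BSA and 1.33, 1.22 and 1.72 with EXO-Post Palm, and the groups were apart, with a difference of 0.50 (SE 0.202, limma p = 0.0362, adjusted p = 0.461, exact permutation p = 0.0286). The brighter probe, 185 bases away, read 2.58, 2.08 and 2.43 with EXO-Post BSA and 2.35, 2.70 and 2.59 with EXO-Post Palm, where its spot on EXO-Post BSA replicate 3 carried an outlier mark and was left out. These groups overlapped, and the difference was 0.18 (SE 0.238, limma adjusted p = 0.833). Mmp14, the membrane-type enzyme that activates MMP2, differed by 0.24 (SE 0.376), and EXO-Post BSA replicate 1 (-0.44) lay far below the other 6 arrays (0.67 to 1.15).

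Mmp10 and Mmp12, the stromelysin and the macrophage elastase, were each well above background on 3 EXO-Post BSA arrays and 1 EXO-Post Palm array. Mmp10 differed by -0.91 (SE 0.462, limma adjusted p = 0.563) and Mmp12 by -0.69 (SE 0.56, limma adjusted p = 0.722), and for both the groups overlapped. Leaving out 1 array moved both: Mmp10 was at -0.34 without replicate 3 of EXO-Post Palm, and Mmp12 at -0.22 without replicate 1 of EXO-Post Palm and at -0.29 when EXO-Post BSA replicate 3 was left out. The other secreted enzyme, Mmp19, differed by 0.14, and of the membrane-type enzymes Mmp15, Mmp17, Mmp23 and Mmp24 differed by -0.44, 0.11, -0.03 and -0.47, with Mmp24 at -0.13 when slide was a block.

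**Figure D3:**
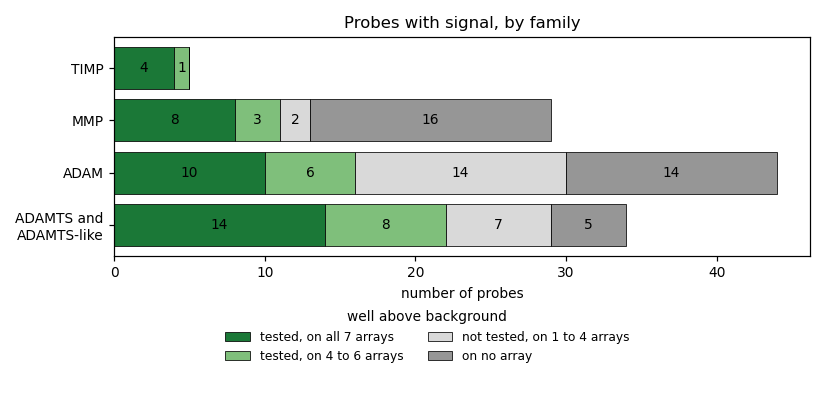
Number of probes of each family by the arrays on which the scanner software called them well above background. All 5 TIMP probes were tested, while 16 of 29 MMP probes were well above background on no array.

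The groups did not overlap for 4 of the 22 tested probes of ADAMTS and ADAMTS-like genes (18.2%, against 11.3% of all tested probes). All 4 were lower with EXO-Post Palm. They measured Adamts2 and Adamts14, which remove the amino-terminal propeptide of fibrillar procollagens, and Adamts4 and Adamts8, counted with the enzymes that cut aggrecan and other proteoglycans. Of these 4, Adamts8 passed the signal rule through EXO-Post BSA alone, with signal on 3 of its arrays and on 1 of EXO-Post Palm. Of 24 genes 16 passed the signal rule, with 8 of the 22 probes at a difference above 0 (36.4%, against 47.3% of all tested probes) and 14 below. The 8 probes with signal on 4 to 6 arrays all passed the rule through EXO-Post BSA alone, which favours a lower value with EXO-Post Palm. Of these, the dimmer probes of Adamts8 and Adamts16 lay above 0 and the others below.

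Adamts2, by its brighter probe (NM_175643, mm9 chr11:50617472-50617531, plus strand), read 3.47, 3.06, 3.57 and 3.39 with EXO-Post BSA and 2.92, 2.63 and 2.50 with EXO-Post Palm. All 3 EXO-Post Palm arrays lay below all 4 EXO-Post BSA arrays, with a narrow gap between EXO-Post BSA replicate 2 and EXO-Post Palm replicate 1. The difference was -0.69 (SE 0.217), or 1.61-fold lower (limma p = 0.0121, adjusted p = 0.324, exact permutation p = 0.0571), and -0.34 and -0.89 within slides 1 and 3. It was -0.25 with the authors' processed values, and -0.23 both with normexp background correction and with local background subtracted. A dimmer Adamts2 probe, 27284 bases before the other on mm9, differed in the other direction, by 0.65 (SE 0.37, limma adjusted p = 0.604), with overlapping groups.

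Adamts14 read 4.23, 3.84, 4.01 and 3.83 with EXO-Post BSA and 3.17, 3.69 and 3.73 with EXO-Post Palm by its brighter probe. The difference of -0.45 (SE 0.226, limma adjusted p = 0.561, exact permutation p = 0.0286) was largest against EXO-Post Palm replicate 1, the array of that group on slide 1, and it was -0.87 within slide 1 and -0.10 within slide 3. A dimmer Adamts14 probe differed by -0.02.

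Adamts4 read 3.05, 2.91, 2.88 and 2.57 with EXO-Post BSA and 2.26, 2.56 and 2.00 with EXO-Post Palm (NM_172845, mm9 chr1:173189952-173190011, plus strand). The nearest arrays of the groups, EXO-Post BSA replicate 4 and EXO-Post Palm replicate 2, were almost level. The difference was -0.58 (SE 0.223), or 1.5-fold lower (limma p = 0.0289, adjusted p = 0.434, exact permutation p = 0.0571), with -0.72 within slide 1, -0.57 within slide 3 and -0.66 with slide as a block.

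Adamts8 was well above background on 3 EXO-Post BSA arrays and 1 EXO-Post Palm array, reading -3.94, -3.37, -3.66 and -4.04 against -4.43, -4.66 and -4.12. Its difference was -0.65 (SE 0.243, limma p = 0.0258, adjusted p = 0.424, exact permutation p = 0.0571), but -0.09 within slide 3, and a second probe near background differed by 0.19. Of the other proteoglycan-cutting enzymes, Adamts1 differed by 0.07, Adamts5 by 0.11 (-0.08 by its dimmer probe) and Adamts15 by -0.50 (limma adjusted p = 0.767). Adamts15 was further apart within slides 1 and 3 (-0.74 and -2.02) and at -1.29 with slide as a block (limma adjusted p = 0.275). Adamts12, a dim probe, read -4.18, -3.31, -2.58 and -3.10 with EXO-Post BSA and -4.24, -5.89 and -3.28 with EXO-Post Palm. Its difference of -1.17 (SE 0.595, limma adjusted p = 0.563) became -0.46 without EXO-Post Palm replicate 2 and -0.36 with slide as a block. The 4 ADAMTS-like genes, which lack the protease domain, differed by -0.23 to 0.38, with Adamtsl5 at -0.13 by its brighter and 0.01 by its dimmer probe.

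**Figure D4:**
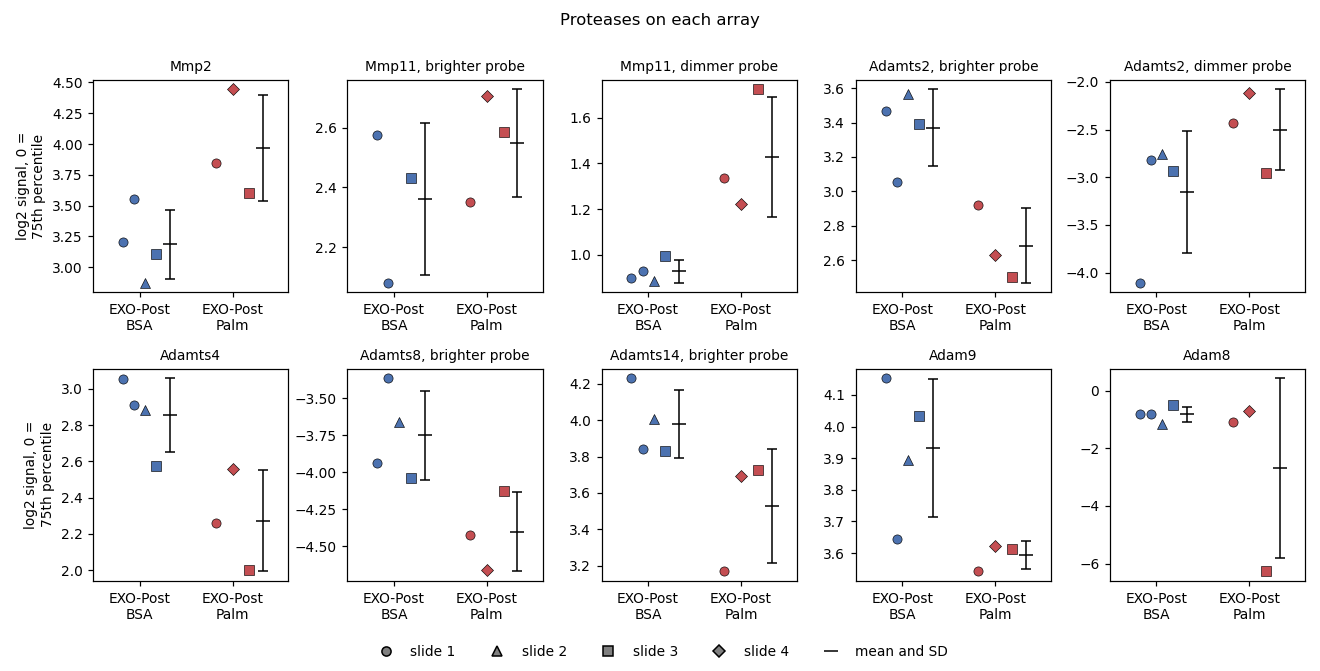
Log2 signal on each array for the proteases described in the text, with 0 at the 75th percentile, for EXO-Post BSA (blue, n = 4) and EXO-Post Palm (red, n = 3); shapes give the slide, and bars give mean and SD. Mmp2 and the dimmer Mmp11 probe are higher on all 3 EXO-Post Palm arrays, the brighter probes of Adamts2, Adamts8 and Adamts14, Adamts4 and Adam9 are lower on them, and Adam8 is set apart by EXO-Post Palm replicate 3 at -6.27; each panel has its own axis.

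No ADAM probe had an unadjusted limma p under 0.05, out of 16 probes for 15 genes that passed the signal rule. Over all tested probes 10.0% had one, and 16 probes are too few to set 0 apart from that share. Of the 16 probes, 8 had a difference above 0 and 8 below. Among the active membrane proteases the sheddases Adam10 and Adam17 differed by -0.42 (95% interval -1.64 to 0.81) and 0.13 (95% interval -0.43 to 0.69), and Adam12 by -0.39 (95% interval -1.27 to 0.49). Adam10 was low on both arrays of slide 3, at 0.61 and 0.16, against 1.64 to 2.45 on the other 5 arrays. Adam17 was measured by a dim probe at -3.72 to -2.92.

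Adam9, a widely expressed sheddase, read 4.15, 3.64, 3.89 and 4.03 with EXO-Post BSA and 3.54, 3.62 and 3.61 with EXO-Post Palm. The groups were apart by a narrow gap, between EXO-Post BSA replicate 2 and EXO-Post Palm replicate 2, and the difference was -0.34 (SE 0.202, limma adjusted p = 0.624), with -0.36 and -0.42 within slides 1 and 3. Adam15 differed by 0.03 (95% interval -0.70 to 0.76), with a sign that changed under 7 of 20 alternatives, and Adam19 by -0.11 (95% interval -0.53 to 0.30). Adam33 and Adam25, of which the latter is known from testis and was near background, differed by 0.62 (SE 0.366, limma adjusted p = 0.618) and 0.87 (SE 0.43, limma adjusted p = 0.554). Adam33 was at 0.22 without EXO-Post Palm replicate 2, and Adam25 at 0.28 with the authors' processed values, 0.13 with normexp and 0.12 with local background subtracted. Of the 5 testis-associated genes that passed the rule 4 had a difference above 0 (80%, against 47.3% of all tested probes). Besides Adam25 these were Adam26b, Adam5 and Adam6b, at only 0.06, 0.10 and 0.20. Adam25 passed the signal rule through EXO-Post Palm alone, with signal on 3 of its arrays and on 2 of EXO-Post BSA.

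Adam8 had the largest difference in size among the tested members, -1.87 (SE 1.16, limma adjusted p = 0.636), and it came from 1 array. It read -0.81, -0.81, -1.15 and -0.49 with EXO-Post BSA, -1.07 and -0.71 on EXO-Post Palm replicates 1 and 2, and -6.27 on EXO-Post Palm replicate 3, where it was not well above background. Without that array the difference was -0.07.

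**Figure D5:**
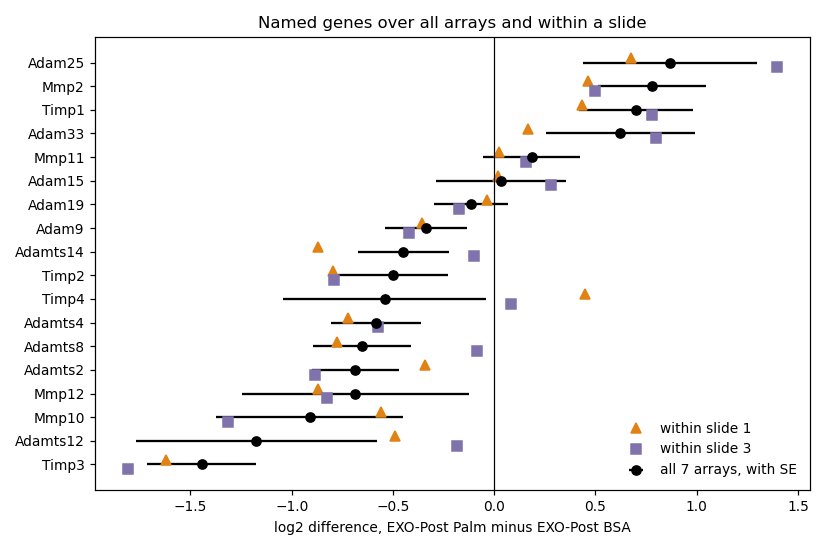
Log2 difference of the named genes, by the brightest probe of each, over all 7 arrays with the SE from limma, and within slide 1 and slide 3, which held arrays of both groups; Adam8, at -5.78 within slide 3, is left out. Timp3 lies at -1.62 and -1.81 within the slides, and Timp4 and Mmp2 lie higher and lower within both slides than over all arrays.

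Genes that act with these proteases were taken from 6 lists, each gene by its brightest tested probe, and no gene of any list had an adjusted p under 0.05. The lists were chosen with earlier results of these data known, so their shares are descriptions and not tests. A share of a list is of genes, and the share of all tested probes set beside it is of probes. In 3 of 20 alternatives a list gene passed, Ereg in 1 and Lum and Plaur together in 2, as given below. In the plasminogen system, whose active protease plasmin activates several MMP precursors, 5 of 10 listed genes were tested, with a median difference of 0.37, and 2 were higher at an unadjusted p under 0.05, a share of 40.0% against 10.0% of all tested probes. Plaur, the urokinase receptor, read -0.23, -0.41, -0.25 and -0.45 with EXO-Post BSA and 0.42, 1.14 and 1.11 with EXO-Post Palm, so the groups were apart, and the difference was 1.22 (SE 0.236, limma adjusted p = 0.0813). Its adjusted p by limma was 0.0384 over the probes well above background on all 7 arrays and 0.0351 in a trended and robust fit. Serpine2, protease nexin 1, differed by 0.85 (SE 0.235, limma adjusted p = 0.237). Its probe was dim with EXO-Post BSA, at -4.93 to -4.19, and well above background on 3 of these 4 arrays. The activators Plat and Plau, for tissue plasminogen activator and urokinase, differed by -0.81 (limma adjusted p = 0.624) and -0.08.

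Of the convertases and other inhibitors of proteases 7 of 10 were tested, and the median was -0.18. None had an unadjusted limma p under 0.05, against 10.0% of all tested probes, a share that 7 genes are too few to resolve. Furin, which removes the propeptide of ADAMs, ADAMTS proteases and membrane-type MMPs, differed by -0.54 (SE 0.31, limma adjusted p = 0.606) and its relative Pcsk6 by -0.68. Bsg, basigin, an inducer of MMPs, had the 1 positive difference (0.49). Of the astacin, cathepsin and related proteases of the matrix 7 of 10 were tested. Again none had an unadjusted limma p under 0.05, against 10.0% of all tested probes, and 7 genes are again too few. The median was 0.07, from Tll1 (-0.69) and Bmp1 (-0.34) to Htra1 (0.34) and Hpse (0.60).

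Partners of ADAM10 and ADAM17, the tetraspanins and iRhoms that carry them to the surface, were tested for 7 of 8 genes, with a median of -0.06. An unadjusted limma p under 0.05 was found for 1 of the 7 (14.3%, against 10.0% of all tested probes). Tspan15, which steers ADAM10, was lower at an unadjusted p under 0.05, by -0.77 (SE 0.302, limma adjusted p = 0.444) and by -1.19 with slide as a block, followed by Tspan14 (-0.50), while the iRhom gene Rhbdf2 (0.11) and Tspan17 (0.05) lay highest. Of 16 membrane proteins that ADAMs shed 12 were tested, of which 2 had a difference above 0 (16.7%, against 47.3% of all tested probes), with a median of -0.48 against -0.02 over all tested probes. At an unadjusted p under 0.05, 4 of the 12 differed (33.3%, against 10.0% of all tested probes): 3 were lower, Notch1 (-1.18, SE 0.356, limma adjusted p = 0.293), Nrg1 (-0.55) and Il6ra (-0.53), and 1 was higher. That was Ereg, epiregulin, a ligand of the EGF receptor, which read -2.89, -2.47, -3.74 and -2.42 with EXO-Post BSA and -0.90, -2.36 and -0.51 with EXO-Post Palm. Its difference was 1.62 (SE 0.483, limma adjusted p = 0.285), and EXO-Post Palm replicate 2 lay just above the EXO-Post BSA arrays. With slide as a block Ereg was at 1.84 and passed narrowly (limma adjusted p = 0.04999). The other positive difference was that of Areg (0.29).

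Among matrix proteoglycans and glycoproteins that ADAMTS proteases cut, 10 of 13 genes were tested, with a median of -0.07, and 3 of the 10 had an unadjusted p under 0.05 (30.0%, against 10.0% of all tested probes). Lum, lumican, a small proteoglycan on collagen fibrils, read 0.80, 0.35, -0.43 and 0.30 with EXO-Post BSA and 1.80, 1.48 and 1.83 with EXO-Post Palm. Its groups were apart, with a difference of 1.45 (SE 0.297, limma adjusted p = 0.105), and Bgn, biglycan, differed by 0.38. The adjusted p of Lum by limma was 0.0448 over the probes well above background on all 7 arrays and 0.039 in a trended and robust fit. On the other side lay Hspg2, perlecan of basement membranes, at -0.89 (SE 0.229, limma adjusted p = 0.204), and Thbs1, thrombospondin-1, at -0.65 (SE 0.229, limma adjusted p = 0.394), both with groups apart. Over the 6 lists together the unadjusted p was under 0.05 for 10 of 48 tested genes (20.8%, against 10.0% of all tested probes), of which 4 were higher and 6 lower.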

How the data were processed

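RNA of 7 C2C12 cultures was measured on 1-colour Agilent mouse arrays. The deposited scanner files give a processed intensity per spot, background-subtracted and detrended and not yet normalised, and the authors also deposited a table of log2 values with the same distribution on every array. That table was joined to the spots by row order (lowest rank correlation 0.9936 with each array's median intensity) and used as an alternative. The labels name Agilent Feature Extraction 9.1, the file headers name 10.7.3.1 and, for EXO-Post BSA replicate 3, 11.5.1.1. The paper names Agi4x44PreProcess and limma without settings. Positions are those of the array annotation (mm9).

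Here log2 of the processed intensity was set against the 75th percentile of each array (43020 non-control spots), control spots and marked outlier spots were left out, and 399 probes printed 10 times were averaged. Of 39429 probes, 21589 were well above background on at least 3 arrays of 1 group and were compared with limma 3.58.1 (R 4.3.3, condition only, 2-sided, Benjamini-Hochberg over all tested probes, threshold 0.05), with an exact permutation test over 35 splits for single probes. Tables and figures were made with Python 3.11.15, pandas 2.3.3, scipy 1.17.1 and matplotlib 3.10.9. The model was tested on simulated data. Gene names are those of the array files. The accessions of 52 of the 54 tested member probes were found in the RefSeq table, with the same symbol.

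The members, the gene lists and the tests were chosen with earlier results of these data known. Named genes are all Timp genes, members with an unadjusted p under 0.05, and, in each family, the 3 probes with the highest level and the 3 with the largest difference. Of each list the text gives the largest differences in each direction. A gene is given by its brightest tested probe, and for a named gene another tested probe is given where its direction or call differs. The 20 alternatives, of which 2 were added after seeing the data, cover background correction, normalisation, the probe filter, slide, replicate number, the model, the test and each array left out. Normexp was run on median signals, since the output of 1 array has no mean signal. The western blots, qRT-PCR and animal experiments of the study were not analysed here.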

Additional observations from a re-analysis of the deposited data

Results flagged for a closer look

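In the 4 EXO-Post BSA arrays, 53 of the tested member probes had a value on each array, and for 2 of them the lowest array stood apart from the others by more than Dixon's 95% limit for 4 samples, which chance alone passes about 1 time in 20. Both lowest values were those of EXO-Post BSA replicate 1. The dimmer Adamts14 probe read -5.14 there, against -3.70 to -3.59 on the other EXO-Post BSA arrays, and was not well above background on that array alone of the group. The dimmer Adamts2 probe read -4.10 there, against -2.94 to -2.76 on the others. The brighter probes of Adamts14 and Adamts2 read 4.23 and 3.47 on the same array, within or above the range of the other EXO-Post BSA arrays.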

How the results depend on the processing

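The directions of 17 of the 19 named genes were the same under all 20 alternatives, or 19 for a gene not well above background on all 7 arrays. Adam15 changed sign in 7: with the median in place of the 75th percentile (-0.027), the authors' processed values (-0.049), normexp (-0.0335) and local background subtracted (-0.0333), and without EXO-Post BSA replicate 3 (-0.17), EXO-Post Palm replicate 1 (-0.08) and EXO-Post Palm replicate 3 (-0.15), with a range of -0.17 to 0.33 when an array was left out. Timp4 changed sign with slide as a fixed block (0.29). Of the members, 1 probe passed in place of 0, and it was Timp3 each time: with probes well above background on all 7 arrays (-1.44, limma adjusted p = 0.0276), slide as a random block (-1.49, 0.0335), array weights (-1.53, 0.0318), a trended and robust fit (-1.44, 0.025) and without EXO-Post Palm replicate 2 (-1.74, 0.0171). Its adjusted p ranged from 0.0171 to 0.347 over all alternatives, and its difference from -1.74 to -1.27 when an array was left out. The number of member probes with an unadjusted p under 0.05, 7 as reported, was 4 without a probe filter and 11 with slide as a fixed block. It was 4 to 11 when an array was left out, with 4 without EXO-Post BSA replicate 2 and 11 without EXO-Post Palm replicate 2. The share of all probes compared was 4.82% without a filter, where all 39429 were compared. It was 9.13% without EXO-Post BSA replicate 2 and 9.87% without EXO-Post Palm replicate 2. After adjustment 0 or 1 of the member probes passed. Different genes lay behind these counts: of the 11 with slide as a fixed block, 2 were among the 7 (Timp3 and Adamts4) and 9 were not (Adam8, Adam25, Adamts15, Adamts16, Adamts18, Adamtsl1, Mmp10, Mmp12 and Timp2), with 9.70% of all tested probes under 0.05, and of the 11 without EXO-Post Palm replicate 2, 5 were among the 7. The causes were not tested. The number of all probes past the threshold, 115, was 0 without EXO-Post BSA replicate 1 and 202 without EXO-Post Palm replicate 2. The replicate numbers of the labels were not taken to pair the arrays. Deviations of same-numbered arrays from their group means correlated at 0.12, -0.15 and -0.15. Slides and means of few arrays also enter these values, so they cannot show whether the cultures were paired. With a replicate block no probe passed, and Timp3 was at -1.44 (limma adjusted p = 0.347). There 8 member probes had an unadjusted p under 0.05, as did 8.95% of all tested probes. With the methods' t-test 8 members were under 0.05, as were 9.76% of all tested probes, and none passed after Benjamini-Hochberg. Of the 54 probes, 18 were not well above background on all 7 arrays, which limits Timp4, Mmp10, Mmp12, Adam25, Adamts8 and Adamts12 most. Adam8 is among the 18 through EXO-Post Palm replicate 3 alone.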

Other observations

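Serpinb2, plasminogen activator inhibitor 2, did not pass the signal rule and was chosen here after its values were seen. With EXO-Post BSA it read -6.84 to -5.21 and no array gave it a signal well above background, and it had one on 2 of the 3 EXO-Post Palm arrays, where it read -3.59, -4.68 and -2.85. No test was made for it. Of the 58 member probes that were not tested, 35 were well above background on no array and 23 on 1 to 4 arrays, and the genes with such a partial signal include Mmp7, Mmp28, Adamts9, Adamts10, Adamts13 and Adamts17.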
